A study of Rattus norvegicus with 6 samples.

Results

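The heat shock chaperones described here are the genes whose rat symbol begins with Hspa, Hspb, Hspd, Hspe, Hsph, Hsp90a, Dnaja, Dnajb or Dnajc and a number, together with Hsf1, Hsf2 and Bag1 to Bag6. The rule leaves out 5 chaperones of the endoplasmic reticulum (Hspa5, Hsp90b1, Dnajb9, Dnajc3 and Dnajb11). It found 65 of the 14217 genes that the annotation pairs with a probe set of their own, on 103 probe sets. Each gene is represented by its probe set with the highest mean over all 6 arrays, so the level chose the probe set and the diet did not. Of the 65, 54 were above the brightness limit and were tested, among 10372 genes in all. Most members work in the cytosol, nucleus or mitochondria. The symbol rule also takes in residents of the endoplasmic reticulum or its membrane, among them Hspa13, Dnajc1, Dnajc10, Dnajb12 and Dnajb14.

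Total RNA was from livers of Sprague-Dawley rat pups aged 3 weeks, at weaning, hybridised to Affymetrix rat expression arrays with 1 array per sample. In the high fat group the dams were fed a high fat diet (3 arrays), and in the control group the dams were fed standard chow (3 arrays). The comparison asks how the mother's diet relates to the liver of the offspring. Following the numbers in the labels, the arrays are called high fat 1 to 3 and control 1 to 3. Litter and sex are not among the labels. Each p-value therefore rests on the variation among 6 pups, some of which may have had the same dam.

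Heat shock proteins bind unfolded stretches of other proteins and keep them from clumping until they fold, enter an organelle or are degraded. HSP70 proteins do so in cycles of ATP hydrolysis: J-domain proteins (the DNAJ families) bring the client and trigger hydrolysis, and BAG and HSP110 proteins release the nucleotide and with it the client. HSP90 completes the folding of kinases and steroid receptors, small heat shock proteins hold clients without ATP, and HSPD1 with HSPE1 forms the folding chamber of mitochondria. The transcription factor HSF1 switches on the inducible members of the set during protein damage, through repeats of GAA and TTC units called heat shock elements, while other members are made constantly. Hepatocytes, which make most plasma proteins, have a high constant need for chaperones.

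The following windows are from RefSeq promoters of assembly GRCr8 and are shown because these members were among those that differed most between arrays or hold the longest elements. Dnaja4, whose range over the arrays was also wide (3.72), holds neither element described below and is not shown. Each runs 5′ to 3′ on the gene's strand, and capitals mark GAA and TTC units that adjoin in opposite directions with a pair of bases between them. Positions count from the transcription start, with negative numbers before it.
Hsph1, GRCr8 chr12:10427118-10427367, plus strand, positions -250 to -1: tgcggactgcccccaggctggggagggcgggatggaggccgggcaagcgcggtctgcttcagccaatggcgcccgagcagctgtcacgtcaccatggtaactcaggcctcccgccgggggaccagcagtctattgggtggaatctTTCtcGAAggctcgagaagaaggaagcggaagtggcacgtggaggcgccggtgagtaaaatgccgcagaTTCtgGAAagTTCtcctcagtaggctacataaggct
Hspe1, GRCr8 chr9:64084227-64084326, plus strand, positions -100 to -1: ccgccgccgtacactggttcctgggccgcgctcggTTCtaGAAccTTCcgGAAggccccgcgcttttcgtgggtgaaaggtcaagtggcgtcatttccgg
Dnaja1, GRCr8 chr5:60638404-60638433, plus strand, positions 1 to 30: ggccgggcgGAActTTCcaGAAcgctcggt
Hspb1, GRCr8 chr12:26432302-26432451, minus strand, positions -150 to -1: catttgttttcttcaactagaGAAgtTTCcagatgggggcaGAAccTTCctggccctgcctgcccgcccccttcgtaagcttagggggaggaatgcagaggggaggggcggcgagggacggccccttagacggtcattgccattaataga
Dnajb1, GRCr8 chr19:41431142-41431241, minus strand, positions -100 to -1: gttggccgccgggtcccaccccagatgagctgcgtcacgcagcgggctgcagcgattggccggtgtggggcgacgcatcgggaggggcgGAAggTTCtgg
Hspb8, GRCr8 chr12:45837258-45837307, plus strand, positions -50 to -1: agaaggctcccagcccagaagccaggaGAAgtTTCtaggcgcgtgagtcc
Bag3, GRCr8 chr1:192533310-192533359, plus strand, positions -150 to -101: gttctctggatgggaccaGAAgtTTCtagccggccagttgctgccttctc
Hspa1a, GRCr8 chr20:3859606-3859755, plus strand, positions -150 to -1: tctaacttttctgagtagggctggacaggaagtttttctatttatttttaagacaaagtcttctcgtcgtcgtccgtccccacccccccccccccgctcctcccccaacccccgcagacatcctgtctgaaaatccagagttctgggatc

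Promoter windows of 300 bases, 250 before the start and 50 after it, were found for 52 of the 65 members, 53 windows in all. An element of 3 alternating units (GAA, any 2 bases, TTC, any 2 bases, GAA, or its reverse complement, which begins and ends with TTC) was in 4 of them, 7.55%, against 267 of all 33469 windows, 0.798%. It was in 0.467% of the windows of genes tested. The 4 members are Hsph1 (positions -36 to -24), Dnaja1 (10 to 22), Hspe1 and Hspd1. Hspe1 and Hspd1 start 290 bases apart on chromosome 9 and point away from each other, so their windows share 1 element. Seen from Hspe1 it runs from -65 to -48 and holds 4 units in a row.

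A shorter element of 2 units (GAA, any 2 bases, TTC, or TTC, any 2 bases, GAA, each its own reverse complement and contained in the longer one) was in 15 of the 53 member windows, 28.3%. It was in 15.9% of all windows and in 11.8% of the windows of genes tested. The shorter search was chosen after the data were seen. Of the 8 members that stood highest on high fat 2 (below), 6 hold it (Bag3, Dnaja1, Dnajb1, Hspb1, Hspb8 and Hsph1), and Dnaja4 and Hspa1a do not within these windows. The matches are letters in a window and describe no binding.

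All levels below are quantile-normalised log2 signal, and every difference is high fat minus control in log2 units, with limma's standard error (SE). A level of 1 probe set cannot be set against that of another. In whole liver, fewer cells of a type and less RNA per cell cannot be told apart. Some libraries stood apart. High fat 1 carried transcripts of exocrine pancreas: 17 of 18 listed markers were measured, none at 0 on all arrays, and their summed linear signal was 64853 on high fat 1, 2913 on high fat 2 and 3596 on high fat 3, against 2716 to 4694 on the control arrays. High fat 3 differed in sex-linked transcripts, with Xist, the RNA that silences an X chromosome in females, at 4.45 and the Y-linked Eif2s3y at 11.14. The other 5 arrays had high Xist and low Eif2s3y. Hepatocyte markers summed to 255038 to 268041 on the high fat arrays and 276217 to 279969 on the control arrays (11 of 12 listed measured, none at 0). The gap between 3′ and 5′ probe sets of beta-actin, a measure of RNA integrity, was 3.81, 3.18 and 3.36 on high fat 1 to 3, against 3.42, 3.69 and 4.50 on control 1 to 3. Markers of other liver cells also differed. All 8 endothelial markers tested were lower in high fat livers (median difference -0.67), 5 of them past the looser threshold given below, and 7 had all high fat arrays below all control arrays. Their summed linear signal, none at 0 on all arrays, was 11706, 15240 and 13640 on high fat 1 to 3, against 23914, 20255 and 22627 on control 1 to 3. All 5 erythroid markers tested were lower (median -0.33). Over the 8 erythroid markers measured, the list median against the control mean was -0.12, -0.78 and -0.03 on high fat 1 to 3. It was 0.52, -0.03 and -0.26 on control 1 to 3. Of 9 markers of Kupffer cells and macrophages, 6 were lower (median -0.07), with a list median of -0.02, -0.38 and 0.14 on high fat 1 to 3. That list median was 0.02, 0.11 and -0.18 on control 1 to 3. Erythroid and Kupffer cell markers were thus lowest on high fat 2, among the high fat arrays. The part of these features in the chaperone values was not tested. For the 8 members that stood out on high fat 2, the difference is given without each of high fat 1, 2 and 3.

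A minority of members stood far above their usual level on high fat 2, some of them also on high fat 3 and none on high fat 1, while most members lay close together on all 6 arrays. They are picked out by their values, not by a list of inducible genes. On high fat 2, 8 of 54 members (14.8%) were at least 1 log2 unit above their own 6-array median, against 1.34% of all genes tested. They were Bag3, Dnaja1, Dnaja4, Dnajb1, Hspa1a, Hspb1, Hspb8 and Hsph1. On high fat 3 it was 5 of 54 (9.26%; Dnaja4, Hspa1a, Hspb1, Hspb8 and Hsph1), against 1.06% of all genes. There Bag3 was 1.82-fold and Dnaja1 1.60-fold the control mean. On high fat 1 it was 0 of 54, against 0.685%. Among the controls it was 0 of 54 on control 1 (1.08% of all genes), 0 of 54 on control 2 (0.472%), and 1 of 54, Dnajb5, on control 3 (0.791%). At least 1 log2 unit below the median were 0 of 54 members on each array, against 1%, 1.09% and 0.858% of all genes on high fat 1 to 3 and 1.28%, 0.713% and 1.72% on control 1 to 3.

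**Figure D1:**
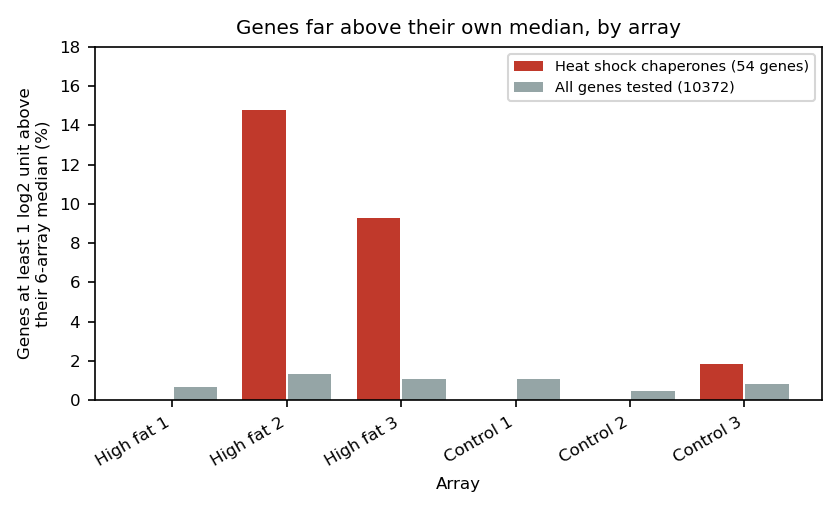
Share of genes, in percent, at least 1 log2 unit above their own median over the 6 arrays, for each array: red bars are the 54 tested heat shock chaperones, grey bars all 10372 genes tested. The chaperone bars reach 14.8% on high fat 2 and 9.26% on high fat 3, and are at 0 on high fat 1, control 1 and control 2.

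Across the 2 diets, 0 of 54 members passed an adjusted p of 0.05 in limma, where 4 of all genes tested (0.0386%) did. At an unadjusted p under 0.05, 10 members were higher (6.55% of all genes) and 1 was lower (7.49% of all genes). At the looser threshold, which adds a change of at least 1.5-fold, 5 of 54 (9.26%) were higher, against 3.34% of all genes: Hspa1a, Dnaja4, Hsph1, Dnajb1 and Hspb8. None was lower, against 3.36% of all genes. The looser count, in either direction, was 9 of 54 without high fat 1, against 7.97% of all genes. It was 1 of 54 (Hsph1) without high fat 2, against 6.42%. It was 2 of 54 without high fat 3 (6.9% of all genes), without control 1 (7.23%), without control 2 (8.23%) or without control 3 (6.37%). Each of these lists of 2 holds Hsph1, and the one without control 2 also holds Dnajb5, lower.

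The median change of the 54 members was 0.12, against -0.02 for all genes tested. The difference was positive for 37 members (68.5%), against 46.9% of all genes, and 43 of the 54 lay within 0.4 of 0. On each array against the control mean, the members' median was 0.03 on high fat 1, 0.15 on high fat 2 and 0.13 on high fat 3, against -0.02, -0.03 and -0.01 for all genes. All high fat arrays were above all control arrays for 11 members (20.4%), against 9.26% of all genes, and below them for 3 members (5.56%), against 11.6%.

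**Figure D2:**
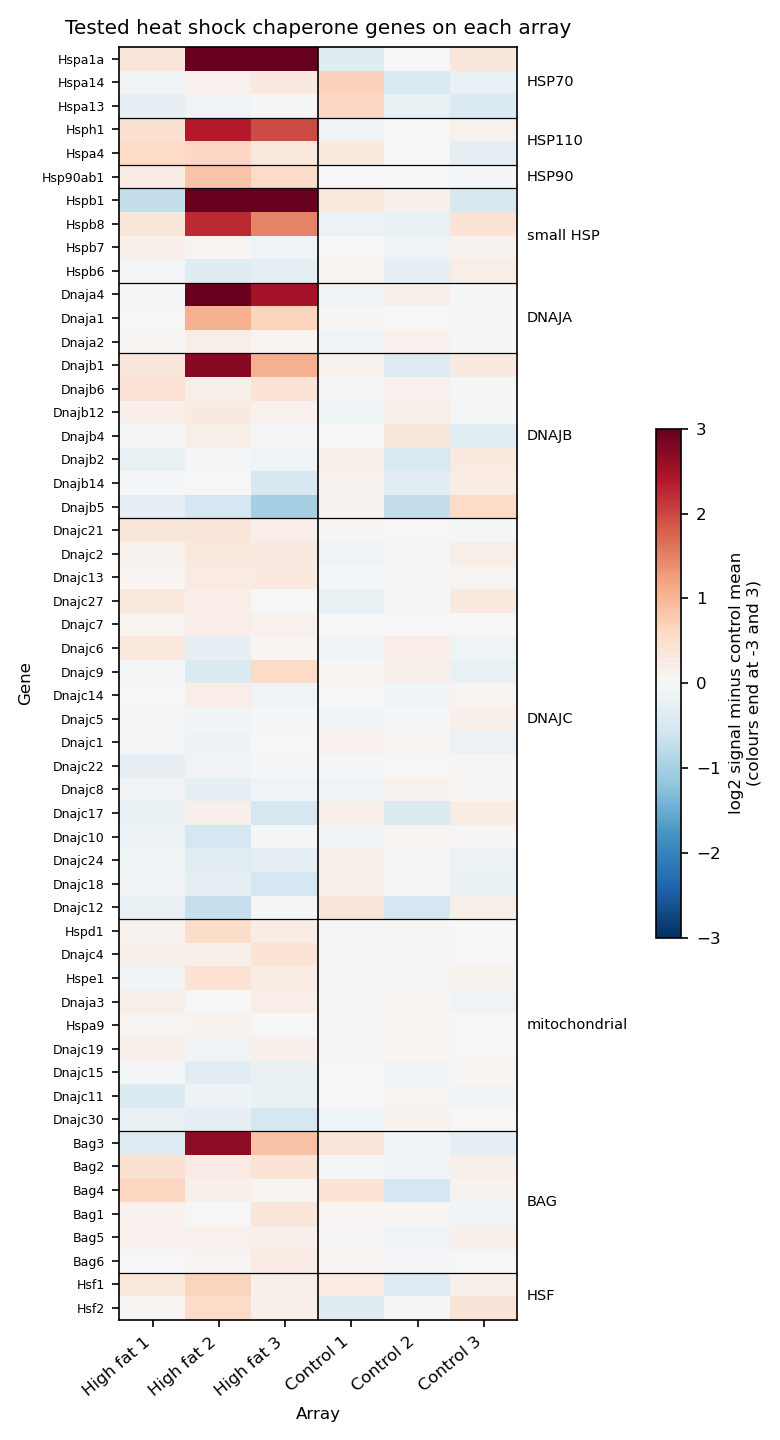
Log2 signal of the 54 tested members on each of the 6 arrays (columns; high fat left, control right), as the difference from the control mean, with genes in rows grouped by class and colours ending at -3 and 3. The deep red cells are on high fat 2 and high fat 3, in the HSP70, HSP110, small HSP, DNAJA, DNAJB and BAG rows, and the DNAJC and mitochondrial rows are pale on all arrays.

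Among the HSP70 proteins, Hspa1a, the classic inducible form, had the widest spread of all members. Its signal was 7.91, 14.19 and 12.60 on high fat 1 to 3, against 7.18, 7.56 and 7.90 on control 1 to 3. High fat 1 was 1.29-fold the control mean and lay just above the highest control, while high fat 2 was 99.8-fold and high fat 3 33.3-fold. The groups did not overlap, and the difference was 4.02 ± 1.45 (SE, 16.2-fold, limma adjusted p = 0.303). It was 5.85 without high fat 1 (limma adjusted p = 0.0465), 2.71 without high fat 2 and 3.50 without high fat 3. A probe set shared by Hspa1a and its near-identical neighbour Hspa1b was also highest on high fat 2 and next on high fat 3. It read 8.79, 13.90 and 11.25 against 7.94, 8.44 and 8.83. High fat 1 lay just below control 3 on this probe set, so its groups overlapped.

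The remaining HSP70 members did not share this pattern. Hspa14, which works with a J-protein at the ribosome, differed by 0.11, and Hspa13 of the endoplasmic reticulum by -0.14. Hspa1l, Hspa2, Hspa12a and Hspa12b were below the brightness limit. The constant cytosolic form, Hspa8, has only a probe set shared with Haus8l2, which read 14.48, 14.62 and 14.29 in high fat livers and 14.09, 14.50 and 14.49 in control livers, so the groups overlapped.

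HSP110 proteins are relatives of HSP70 that act as its nucleotide exchange factors. Hsph1, an inducible one, was at 12.10, 14.02 and 13.60 in high fat livers, against 11.54, 11.64 and 11.78 in control livers. All high fat arrays were higher, including high fat 1, at 1.37-fold the control mean. The difference was 1.59 ± 0.46 (SE, 3.01-fold, limma adjusted p = 0.246), and it was the 1 member past the looser threshold in each of the 14 alternative analyses. It was 2.16 without high fat 1, 1.20 without high fat 2 and 1.41 without high fat 3. Its second probe set gave 9.58, 12.63 and 11.55 against 8.73, 8.92 and 8.92.

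Hspa4, the more constant HSP110, behaved otherwise. It read 9.81, 9.83 and 9.51 in high fat livers and 9.48, 9.19 and 8.93 in control livers, a difference of 0.51 ± 0.18 (limma adjusted p = 0.299). High fat 1 and high fat 2 were nearly level for Hspa4, and the groups did not overlap, although the lowest high fat array exceeded the highest control by little.

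Hsp90ab1, the constant cytosolic HSP90, was at 13.15, 13.79 and 13.49 in high fat livers and 12.94, 12.94 and 12.88 in control livers. On this probe set the groups did not overlap (difference 0.55 ± 0.18, 1.47-fold, limma adjusted p = 0.276). A second probe set of Hsp90ab1 gave 12.70, 13.71 and 13.28 against 12.42, 12.41 and 12.75. There high fat 1 lay below control 3, so the groups overlapped. The inducible HSP90, Hsp90aa1, is read only by probe sets that the annotation also gives to a pseudogene. The brighter of them was at 13.94, 15.00 and 14.75 against 13.81, 13.78 and 13.92 (difference 0.72), again highest on high fat 2. The other was at 12.28, 14.29 and 13.89 against 11.87, 11.97 and 12.48 (difference 1.38). On it, high fat 1 lay below control 3, so the groups overlapped.

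Of 7 small heat shock proteins, 4 were tested. Hspb1 (HSP27), which holds unfolded proteins and guards the actin skeleton, was at 8.70, 14.17 and 13.00 in high fat livers, against 9.73, 9.57 and 8.94 in control livers. High fat 1 lay below all 3 controls, at 0.609-fold their mean, while high fat 2 was 27.0-fold and high fat 3 12.0-fold. The difference of 2.54 ± 1.29 did not pass (limma adjusted p = 0.434). It was 4.17 without high fat 1 (limma adjusted p = 0.0686), 1.44 without high fat 2 and 2.02 without high fat 3.

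Hspb8, which forms a complex with Bag3 that sends misfolded proteins to autophagy, was at 11.62, 13.52 and 12.77 against 11.11, 11.05 and 11.69. High fat 1 lay among the controls here. The difference was 1.35 ± 0.46 (2.55-fold, limma adjusted p = 0.292), and it was 1.86 without high fat 1, 0.91 without high fat 2 and 1.29 without high fat 3. The muscle-enriched Hspb6 and Hspb7 differed by -0.22 and 0.04 and were not raised on high fat 2.

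**Figure D3:**
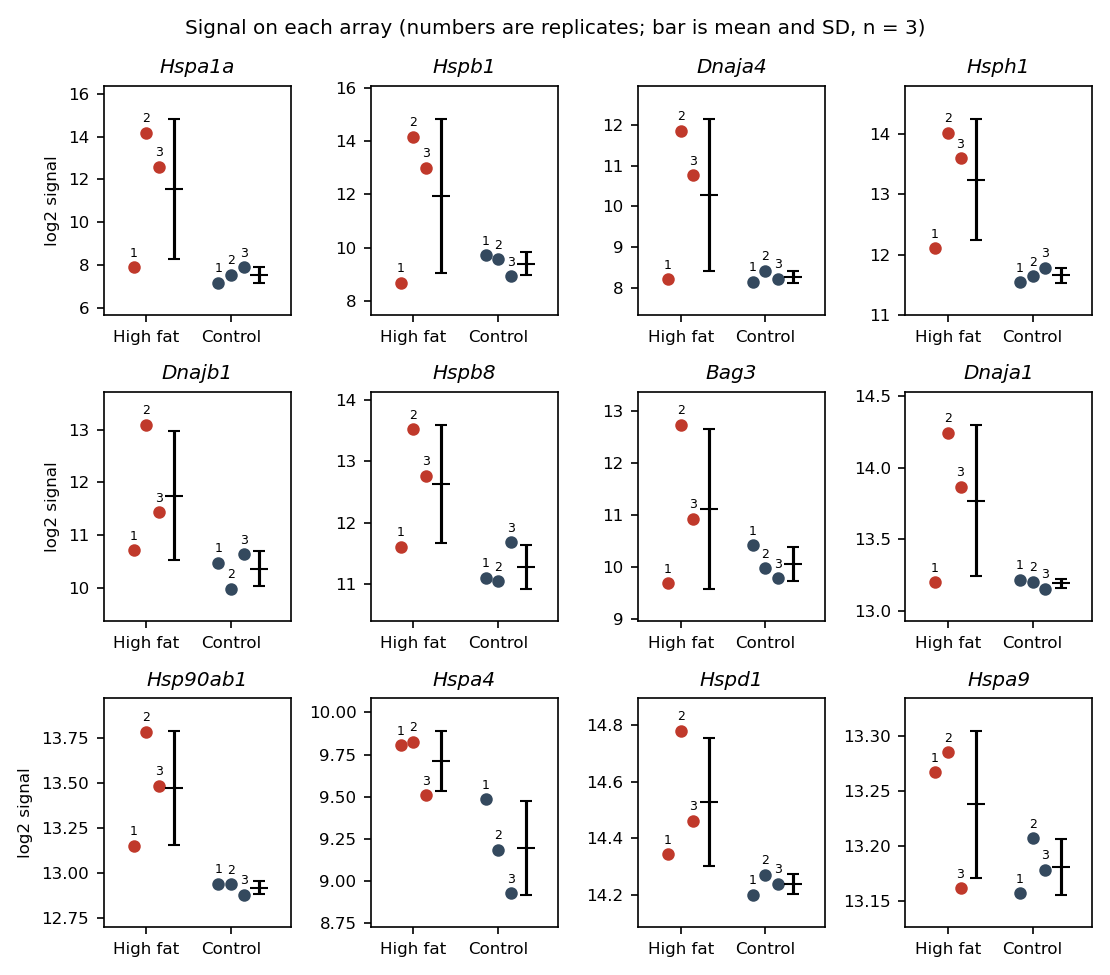
Log2 signal of 12 members on each array (points, numbered by replicate; high fat red on the left, control dark on the right), with the mean and SD of each group as a black bar (n = 3); each panel has its own vertical scale. For Hspa1a, Hspb1, Dnaja4, Hsph1, Dnajb1, Hspb8, Bag3, Dnaja1 and Hsp90ab1, point 2 is the highest of the high fat arrays, point 3 the next and point 1 the lowest.

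J-domain proteins hand clients to HSP70. Dnaja4, a cytosolic type A form, was at 8.21, 11.87 and 10.76 in high fat livers and 8.15, 8.42 and 8.22 in control livers. High fat 1 was within the control range, and high fat 2 and 3 were 12.2-fold and 5.66-fold the control mean. The difference was 2.02 ± 0.84 (4.05-fold, limma adjusted p = 0.348), 3.05 without high fat 1, 1.22 without high fat 2 and 1.78 without high fat 3.

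Dnaja1, a main partner of HSP70 in import into mitochondria and in folding, was at 13.20, 14.25 and 13.87 against 13.22, 13.20 and 13.15, a difference of 0.58 ± 0.26 (limma adjusted p = 0.382). Without high fat 1, 2 and 3 in turn it was 0.87, 0.34 and 0.53. On this probe set the controls lay within 0.1 of one another, and high fat 1 was level with them. A second probe set of Dnaja1 gave 12.42, 13.94 and 13.17 against 12.20, 12.37 and 12.30. Its difference was 0.89, and the groups did not overlap. The third type A protein of the cytosol, Dnaja2, differed by 0.10 and was flat.

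Dnajb1 (HSP40), the J-protein that steers HSP70 to aggregates and back onto HSF1, was at 10.71, 13.10 and 11.43 in high fat livers, against 10.47, 9.98 and 10.64 in control livers. All high fat arrays were above all controls, and the difference was 1.38 ± 0.57 (2.61-fold, limma adjusted p = 0.348), and it was 1.90 without high fat 1, 0.71 without high fat 2 and 1.54 without high fat 3. Its second probe set gave 9.03, 11.99 and 10.75 against 8.86, 9.01 and 8.74.

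Other type B proteins did not follow Dnajb1. Dnajb6, which keeps glutamine-rich proteins soluble, was 0.34 higher with groups apart. Dnajb5 was at 7.74, 7.50 and 7.02 against 8.12, 7.32 and 8.62, a difference of -0.60 ± 0.35 (limma adjusted p = 0.492), and its groups overlapped. It was -0.95 without control 2, -0.40 without high fat 3 and -0.30 without control 3. The 7 tested type B members had a median of 0.02.

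All 6 BAG genes had a positive difference, with a median of 0.23. Bag3 was at 9.68, 12.74 and 10.93 in high fat livers and 10.42, 9.97 and 9.78 in control livers. High fat 1 lay below all 3 controls and high fat 2 was 6.40-fold their mean, and the difference of 1.06 ± 0.70 did not pass (limma adjusted p = 0.551). It depended most on high fat 2, at 0.25 without that array, 1.77 without high fat 1 and 1.15 without high fat 3. Bag2, an inhibitor of the ubiquitin ligase that works with HSP70, was 8.19, 7.97 and 8.13 against 7.66, 7.64 and 7.86 (difference 0.38 ± 0.13, limma adjusted p = 0.299). Bag2 was thus higher on each high fat array, without the peak on high fat 2. Bag1, Bag4, Bag5 and Bag6 differed by 0.11 to 0.29.

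The factors that switch on these genes differed little in transcript. Hsf1 was at 8.27, 8.63 and 8.13 against 8.22, 7.57 and 8.11, a difference of 0.38 ± 0.22 (limma adjusted p = 0.492). Hsf2 was at 10.80, 11.28 and 10.86 against 10.35, 10.67 and 11.10, a difference of 0.27 ± 0.23 (limma adjusted p = 0.645). In both, the groups overlapped on these probe sets. Hsf2 has 3 further probe sets, whose differences were 0.56, 0.45 and 0.14. On the first of these the groups did not overlap, at 8.47, 8.91 and 8.26 in high fat livers against 7.82, 8.03 and 8.11 in control livers. HSF1 is regulated by binding and phosphorylation of the protein, which arrays do not measure.

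The mitochondrial members lay within a narrow band, from -0.35 to 0.29 with a median of 0.06 over 9 genes. Hspd1, the folding chamber, was at 14.34, 14.78 and 14.46 in high fat livers against 14.20, 14.27 and 14.24 in control livers (0.29 ± 0.15, limma adjusted p = 0.442). Its lid Hspe1, transcribed away from the same stretch, was at 14.00, 14.51 and 14.31 against 14.04, 14.03 and 14.18 (0.19 ± 0.16, limma adjusted p = 0.645). In both, high fat 2 was the highest array.

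Hspa9 (mortalin), the HSP70 that pulls proteins into the matrix, was nearly the same on all 6 arrays, at 13.27, 13.29 and 13.16 against 13.16, 13.21 and 13.18 (0.06 ± 0.12). Dnajc30, a J-protein of mitochondria, was lower on each high fat array, at 9.82, 9.75 and 9.53 against 9.93, 10.15 and 10.07, a difference of -0.35 ± 0.14 (limma adjusted p = 0.339). Dnajc11, at the outer membrane, was also lower on each (-0.26). A second probe set of Dnajc11 above the brightness limit differed by -0.17, with overlapping groups. Dnajc19, of the import motor, differed by 0.05.

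The 17 cytosolic, nuclear, endosomal and reticular DNAJC members, whose tasks range from splicing to clathrin uncoating, lay between -0.32 and 0.30, with 8 higher and 9 lower. Dnajc21, which acts in ribosome assembly, and Dnajc7, which links HSP70 to HSP90, were higher on every high fat array than on any control. Dnajc22 was lower on every one. Dnajc12 (difference -0.32), Dnajc18 (-0.30), Dnajc24 (-0.26), which acts in the diphthamide pathway, and Dnajc10 (-0.25), a disulfide reductase of the endoplasmic reticulum, were the lowest of this class, and none passed.

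**Figure D4:**
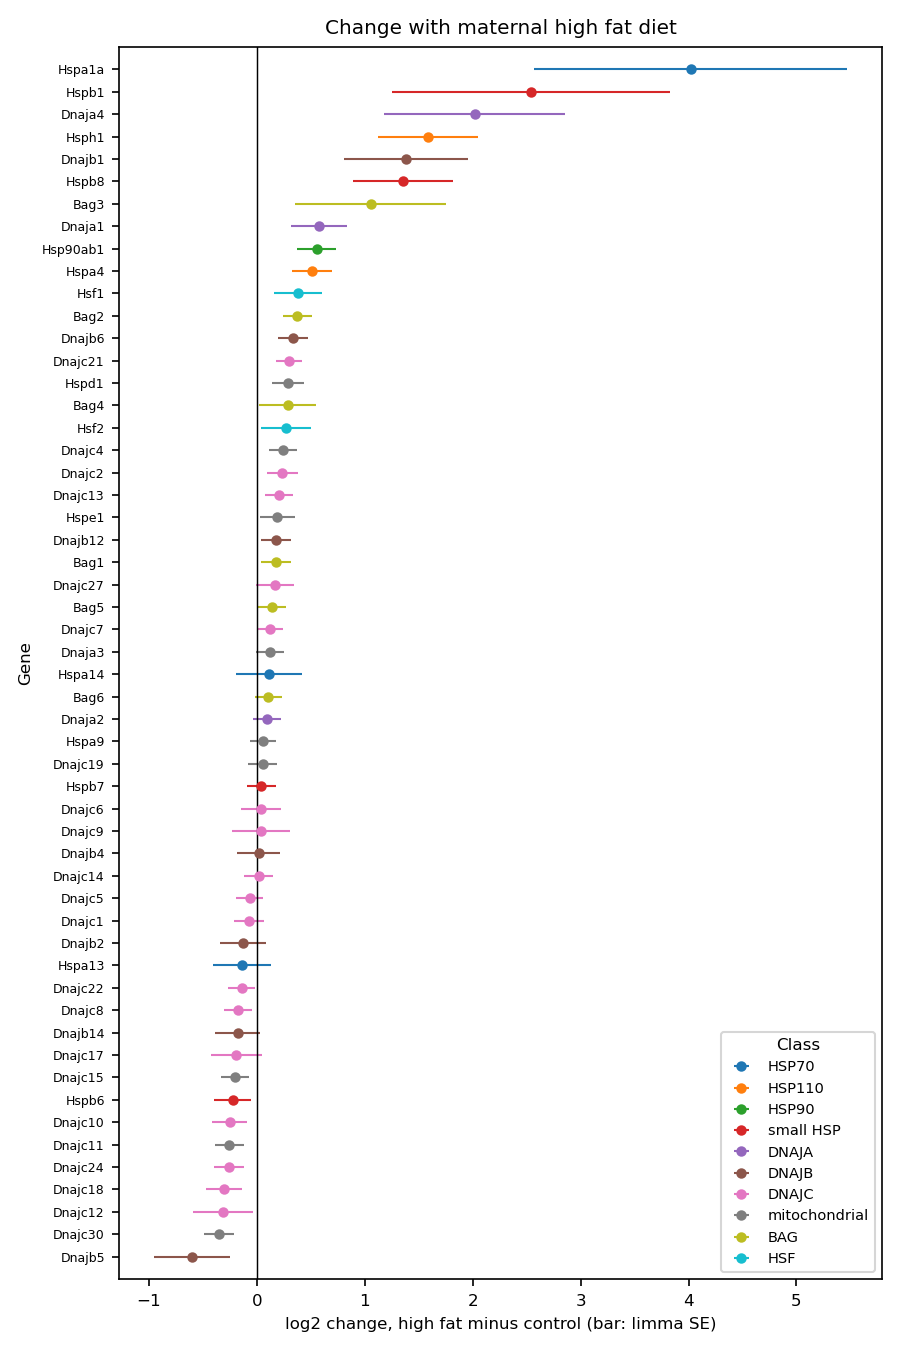
Log2 difference, high fat minus control, of the 54 tested members in order of size (points, coloured by class; bars are limma's SE). Hspa1a (4.02), Hspb1 (2.54) and Dnaja4 (2.02) lie farthest to the right with the widest bars, and 43 of the 54 points lie within 0.4 of 0.

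Within the set, spread was uneven. The median range over the 6 arrays was 0.55 for members and 0.66 for all genes tested. A range of 2 or more was found for 7 of 54 members (13%), against 3.9% of all genes, and a range under 0.5 for 23 (42.6%), against 31.4%. The SD among high fat arrays was over 3 times that among controls for 11 members (20.4%), against 8.48% of all genes. High fat 2 was the highest of 6 arrays for 21 members (38.9%), against 17.8% of all genes, and high fat 1 for 6 (11.1%), against 13.2%. Members above every control numbered 20 (37%) on high fat 1, 26 (48.1%) on high fat 2 and 24 (44.4%) on high fat 3, where 24.3%, 26.1% and 25.4% of all genes were. Members below every control numbered 7 (13%), 14 (25.9%) and 11 (20.4%) on the same arrays, where 28.2%, 32.1% and 28.5% of all genes were.

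The 11 members below the brightness limit of 5.83 had means from 2.66 to 5.80. Just inside the limit was Dnajc6 (mean 5.86), and just outside was Hspb9 (5.80). Without the limit, the smallest adjusted p among the 11 was 0.503 (limma). For 13 members with several probe sets above the limit, the sign was the same in 11 and differed in Dnajb12 and Dnajc14.

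Partners of these chaperones were read from lists chosen with earlier results known. Of 20 cochaperones and HSP90 partners, 14 were higher and 4 passed the looser threshold upward, against 3.34% of all genes, and none downward; the list's median was 0.08. St13 (HIP), which stabilises the bound state of HSP70, was at 12.79, 13.13 and 12.89 against 12.41, 12.37 and 12.24 (0.60 ± 0.14, limma adjusted p = 0.194). Stip1 (HOP), the bridge between HSP70 and HSP90, was at 9.99, 10.97 and 10.91 against 9.40, 9.71 and 10.19 (0.86 ± 0.32). Cacybp (0.86) and Chordc1 (0.73), both bound by HSP90, were highest on high fat 2. Ahsa1, which speeds the ATPase of HSP90, was also among the smallest p-values of the list and differed by 0.54 ± 0.17 (limma adjusted p = 0.272), with groups apart.

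Of 13 subunits of TRiC, the folding chamber of actin and tubulin, and of prefoldin, which feeds it, 10 were higher with a median of 0.10, and none passed the looser threshold. Cct6a (0.37), Cct4 (0.33) and Cct2 (0.31) had the smallest p. Of 13 mitochondrial proteases and partners, 7 were higher, against 46.9% of all genes, and 1 passed upward, against 3.34%. The 1 that passed was Clpx, the unfolding subunit of a matrix protease. It was at 13.20, 13.06 and 12.39 against 12.39, 12.03 and 11.85 (0.79 ± 0.25, limma adjusted p = 0.275). Clpx was highest on high fat 1. Next by p were Trap1, the HSP90 of mitochondria (0.35 ± 0.12), and Grpel2, which releases the nucleotide of Hspa9 (0.45 ± 0.19), both with groups apart and neither past the looser threshold.

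Of 12 other genes linked to HSF1 or stress, 7 were higher (median 0.28), against 46.9% of all genes. Where 3.34% of all genes passed the looser threshold upward, 1 of the 12 did. That was Serpinh1 (HSP47), the collagen chaperone of the endoplasmic reticulum, at 9.90, 10.87 and 10.41 against 9.08, 8.85 and 9.08 (1.39 ± 0.25, limma adjusted p = 0.166). Tra2b, a splicing factor with the next smallest p, was lower on every high fat array, at 12.23, 11.92 and 11.91 against 12.44, 12.39 and 12.37 (-0.38 ± 0.14, limma adjusted p = 0.305). Hspbap1, the next by p and named for binding Hspb1, was 0.48 ± 0.22 higher with groups apart. The rest of the list was mixed, as the following genes, picked with their values in view, show. Zfand2a, an arsenite- and heat-inducible partner of the proteasome, was at 9.04, 11.12 and 9.76 against 9.13, 9.07 and 9.15. Cryab, a small heat shock protein outside the symbol rule, was at 7.07, 8.81 and 8.14 against 7.21, 7.08 and 7.29. Zfand2a and Cryab were highest on high fat 2, and neither passed (limma adjusted p = 0.481 and 0.428). Mt1, a metal-binding protein, was instead lowest on high fat 2, at 9.05, 8.20 and 9.19 against 8.80, 8.86 and 9.82. Gadd45a (-0.19) and Hmox1 (-0.28) were lower on average with overlapping groups.

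Chaperones of the endoplasmic reticulum, which are under other factors, were read beside them. Of 19, 12 were higher and 7 lower, the median difference was 0.06, and none passed the looser threshold in either direction. Against the control mean, their median was -0.05 on high fat 1, 0.26 on high fat 2 and -0.07 on high fat 3, against 0.46 on control 1, -0.28 on control 2 and -0.20 on control 3. Control 1 was therefore the highest array of this list, as in Sdf2l1, a J-protein partner, at 10.83, 11.58 and 10.98 in high fat livers against 12.68, 10.48 and 10.51 in control livers. Hspa5 (BiP), the HSP70 of this compartment, was at 14.31, 14.76 and 14.36 against 14.65, 14.04 and 14.28, where the groups overlapped. The smallest p-values of the list were those of Herpud1 (0.36), Xbp1 (0.25) and Dnajb9 (0.24), all with overlapping groups.

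**Figure D5:**
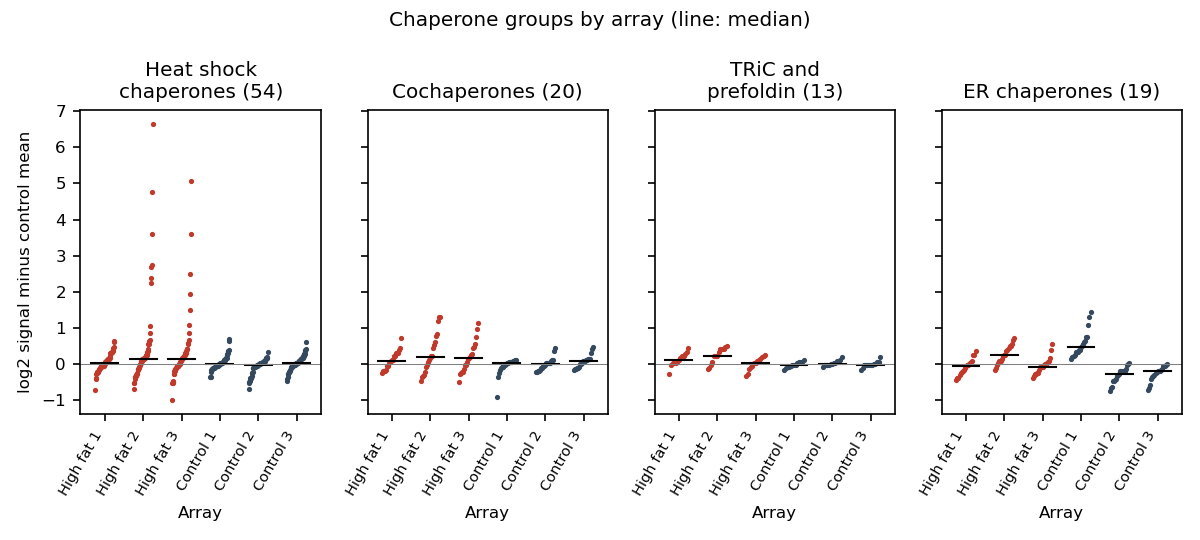
Log2 signal minus the control mean on each array for the tested heat shock chaperones (54), cochaperones (20), TRiC and prefoldin (13) and endoplasmic reticulum (ER) chaperones (19); each point is a gene, sorted within the array, and the black line is the median. The highest points of the heat shock chaperones are on high fat 2 and high fat 3, and the ER chaperone median is highest on control 1, at 0.46.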

How the data were processed

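Liver RNA of 6 rat pups, 3 of high fat and 3 of chow-fed dams, was measured on Affymetrix arrays after TRIzol extraction and 3′ IVT labelling, per the labels' protocols. Deposited values were taken as log2 signal, because base 2 gives each array nearly the same 2% trimmed mean (500.2). Other bases were not tried. No program for summarising probes is named in the sources used here. The authors' lowest values stand at 0, for 91 to 144 of 31099 probe sets per array.

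Quartiles of the arrays differed by up to 0.22, above a limit of 0.1, so arrays were quantile-normalised. Control probe sets (57) and the dimmest 40% by mean were left out. Of the other 31042 probe sets, 20826 were paired with 1 gene, 436 with several and 9780 were not named here. High fat was set against control with the R package limma (version 3.58.1, R 4.3.3; 2-sided lmFit with eBayes), adjusted by Benjamini-Hochberg over 10372 genes. In simulated data for this comparison, with 10372 genes, 68% of 50 genes changed 2-fold, 96% at 4-fold, 96% at 8-fold and 100% at 16-fold were recovered, and 7 unchanged genes were called. The simulation gave both groups the same spread. Members such as Hspa1a were unlike that, with an SD of 3.26 in high fat and 0.36 in control livers. The recovered shares therefore do not apply to such members. Promoters were searched on both strands in RefSeq windows (GRCr8). Plots used matplotlib 3.10.9 (Python 3.11.15).

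The members, the lists, the tests and the alternatives were chosen with earlier results of these data known. Named members are those past a threshold, the 8 with the largest and the 8 with the smallest difference, the 8 with the largest range, the 6 brightest and 17 anchors; of each list, genes past a threshold and the 3 with the smallest p. Any other gene was picked with its values in view. Precision is limited by the number of arrays. The alternatives were for normalisation, filter, several probe sets, variance model, replicate number as a block and each array left out. Samples with the same replicate number did not deviate together (correlations of -0.13, -0.13 and -0.14). Deviations from a group's own mean depend on one another, so these correlations cannot settle whether the numbers pair the samples.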

Additional observations from a re-analysis of the deposited data

How the results depend on the processing

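Of 336 values of the 24 named members under 14 alternatives, 332 kept their direction and their side of the adjusted threshold, 3 newly passed it and 1 reversed. Dnajc19 was -0.14 without high fat replicates 1 and 3 together. Hspa1a passed the adjusted threshold without high fat replicate 1 (limma adjusted p = 0.0465), and Hspa1a (0.0249) and Dnaja4 (0.0356) passed with 1 high fat array left, a lone array assumed to vary like the others. Over the alternatives other than that fit, limma's adjusted p ran from 0.0465 to 0.530 for Hspa1a and from 0.0561 to 0.440 for Hsph1. Members past the adjusted threshold numbered 0 to 1 with 1 array left out. Members past the looser threshold, in either direction, numbered 5 of 54 in the reported analysis, against 6.69% of all genes. They numbered 3 of 65 with no filter (6.56% of all genes) and 3 of 59 with the lowest 20% left out (6.52%). With a trended and robust variance they numbered 2 of 54 (6.48%), and with 1 array left out 1 to 9 of 54 (6.37% to 8.23%). Genes past the adjusted threshold numbered 4 in the reported analysis, 1 with no filter, 1 with the lowest 20% left out and 0 to 4 with 1 array left out. The median difference of the members was 0.10 to 0.13 with 1 array left out and 0.15 without high fat replicates 1 and 3. Members whose groups do not overlap numbered 14 of 54 in the reported analysis, against 20.8% of all genes. They numbered 17 to 27 of 54 with 1 array left out, against 29.1% to 33.2% of all genes. The lowest count, 17, was found without high fat 2 and without high fat 3 (29.1% and 29.4% of all genes). The highest, 27, was found without high fat 1 (32.4%). Without high fat replicates 1 and 3, which leaves high fat 2 alone, such members numbered 40 of 54, against 58.2% of all genes. Fewer arrays make overlap rarer. With the replicate number as a block, 0 genes passed the adjusted threshold in limma (1102 at an unadjusted p under 0.05). There 4 of 54 members passed the looser one, against 6.61% of all genes. The correlation of deviations was -0.13, -0.13 and -0.14 for like numbers and at most 0.08 for unlike ones. Such deviations from a group's own mean depend on one another, so whether the numbers pair the samples stays unsettled. The causes of the shifts among the alternatives were not tested. No test for single outlying arrays was run in these groups of 3.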

Other observations

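Immediate early genes, which respond quickly to growth factors, did not share the array pattern of Hspa1a. Of 16 tested, 6 were higher and 10 lower in high fat livers, with a median difference of -0.17. Klf4 (-0.90), Klf2 (-0.65) and Ier3 (-0.65) passed the looser threshold downward, where 3.36% of all genes did, and none passed upward. Klf2 and Klf4 are also strongly made in endothelium, and the 8 endothelial markers were lower as well, with a median difference of -0.67 and 5 past the looser threshold. The part of endothelial RNA in the values of the early genes was not tested. Against the control mean the list's median, over the 20 genes measured, was -0.08 on high fat 1, -0.34 on high fat 2 and -0.33 on high fat 3. Control 2 was nearly as low as high fat 2 and 3: the list's median was 0.02, -0.31 and 0.13 on control 1 to 3. Its member Atf3, a stress-induced transcription factor that also stands on the list of HSF1-linked genes, was at 6.25, 9.73 and 7.55 in high fat livers, against 6.53, 6.60 and 7.02 in control livers, with high fat 2 highest (1.13 ± 0.79 SE, limma adjusted p = 0.573). No member of either list passed the adjusted threshold in limma.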
